A study of Homo sapiens with 12 samples.

Results

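The comparison described here sets 2 retrovirally transduced sublines of a breast cancer cell population against the untransduced population they came from. SKBR-3 is an established human breast carcinoma line in which the receptor tyrosine kinase gene ERBB2 (HER2) is amplified. SKR6 is the fraction of SKBR-3 that the submitters enriched by cell sorting for high HER2. SKR6-Vector is SKR6 carrying the empty retroviral vector pQCXIP after puromycin selection, and SKR6CA is SKR6 transduced to express constitutively active p65 (RELA), the transactivating subunit of NF-kB, also selected with puromycin. All lines were grown for 48 hours in RPMI medium with fetal bovine serum before RNA extraction. Each line has 3 arrays, so the comparison uses 9 of the 12 arrays of the series. The other 3 arrays hold SKR6LR, a lapatinib-selected subline that received no vector. They are not part of the comparison. They count in the choice of a probe set for each gene and in an alternative fit, and are shown in the plots for orientation. The quantity followed is the mean of the SKR6-Vector mean and the SKR6CA mean minus the SKR6 mean, called the pooled difference, together with the difference of each line from SKR6. The largest changes and the leading members of each list were named by a rule of size, and further members were chosen after their values were seen.

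A retroviral vector inserts a DNA copy into the host genome, and the cells that survive puromycin, an inhibitor of translation, are those that express the resistance gene it carries. Human cells sense and restrict incoming retroviruses with restriction factors such as tetherin (BST2), many of which are induced by interferon, and a population that passes through selection is regrown from its survivors. SKR6 was neither transduced nor selected, and each transduced line is 1 derived population. Insertion, puromycin selection, regrowth from survivors and time in culture therefore cannot be told apart, and the arrays that carry the label biological replicate do not state separate transductions. The p-values measure the spread between arrays of a line.

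The 9 arrays were alike in their overall signal, with medians over all probe sets between 5.74 and 5.77 on the log2 scale. Replicate arrays correlated at 0.9983 to 0.9987 across probe sets, and arrays of different lines at 0.9879 to 0.9903. The 3'-to-5' signal difference of the actin control probe sets ran from 1.19 to 1.73 and that of GAPDH from 0.12 to 0.19, with the groups overlapping. All expression values below are log2 values, on which a difference of 1 is a factor of 2, and a level of one gene is not compared with that of another. Breast epithelial markers were high in all 9 arrays, except CDH1 (E-cadherin), which stood at 4.14 to 4.41 in SKR6, at 4.18 to 4.33 in SKR6-Vector and at 4.21 to 4.39 in SKR6CA. Of the 11 luminal markers, KRT8, KRT18 and MUC1 were higher in both transduced lines. None of the 6 fibroblast markers and none of the 4 measured blood cell markers differed from SKR6 in both lines, whereas 1 of 4 endothelial markers (CDH5) and 1 of 4 measured basal markers (ACTA2) was higher in both. Their summed unlogged signals were 177 to 191 in SKR6 against 406 to 450 in the transduced lines for the endothelial markers, and 190 to 208 against 252 to 674 for the basal markers. The defining endothelial markers PECAM1, VWF and KDR did not differ in either line.

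A gene was called when its adjusted p in limma was under 0.05, and "rose" or "fell" below means that the gene passed in SKR6-Vector and in SKR6CA separately, in 1 direction. The pooled difference was called for 6927 of 19775 genes (35%), 2999 of them higher (15.2%) and 3928 lower (19.9%). Both lines lay on the same side of SKR6 for 6008 of these genes (30.4% of all genes tested), 2522 higher (12.8%) and 3486 lower (17.6%). SKR6-Vector alone was called against SKR6 for 7056 genes (35.7%), 3328 higher (16.8%) and 3728 lower (18.9%). SKR6CA alone was called for 6953 (35.2%), 2835 higher (14.3%) and 4118 lower (20.8%). The stricter requirement that each line pass was met by 3453 genes (17.5%), of which 1400 rose (7.08%) and 2053 fell (10.4%). Both comparisons use the same 3 SKR6 arrays, so this count is not a count of 2 independent observations. Among the 1400 genes that rose, 1387 had all 6 transduced arrays above all 3 SKR6 arrays, and among the 2053 that fell, 2040 had all 6 below. Calling each line against these same SKR6 arrays nearly brings this about, so it adds no support. Over all genes tested the shares were 9.76% and 14.6%. After cyclic loess the called genes split into 1730 higher and 1627 lower, so the excess of falling genes depended on the scaling. With SKR6LR in the fit, which has the larger replicate spread, 2170 genes were called in both lines.

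Most shared differences were small. The median difference of the genes that rose was 0.45 in SKR6-Vector and 0.41 in SKR6CA, and that of the genes that fell was -0.35 and -0.34. A difference of at least 1 in both lines was reached by 113 genes that rose (0.571% of genes tested) and 50 that fell (0.253%), and a difference of at least 2 by 22 (0.111%) and 9 (0.0455%). The lines often differed in size where they shared a direction. A direct test of SKR6CA against SKR6-Vector called 785 of the 1400 genes that rose (56.1%) and 886 of the 2053 that fell (43.2%), beside 36% of all genes (16.3% with SKR6CA above SKR6-Vector and 19.7% with it below). After median centring of each array that split turned, to 4330 above and 3204 below. Of the 785, 448 were further from SKR6 in SKR6-Vector and 337 in SKR6CA. Of the 886, the counts were 473 and 413.

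**Figure D1:**
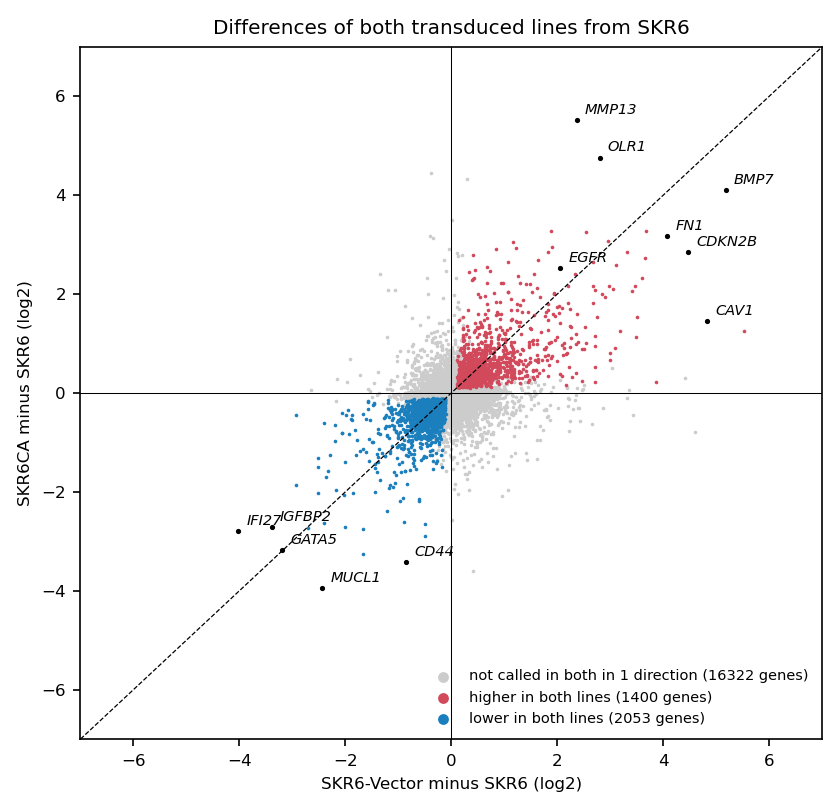
Difference of SKR6CA from SKR6 (vertical, log2) against difference of SKR6-Vector from SKR6 (horizontal, log2) for 19775 genes, 1 point a gene. The 1400 genes that rose in both lines lie in the upper right and the 2053 that fell in the lower left. The dashed line marks equal differences, and the axes share the 3 SKR6 arrays.

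RELA, the gene of the transduced p65, did not separate the transduced lines. Its values were 9.22, 9.07 and 9.20 in SKR6, 9.42, 9.37 and 9.41 in SKR6-Vector, and 9.35, 9.34 and 9.33 in SKR6CA. All 6 transduced arrays lay above SKR6, with a pooled difference of 0.21 (SE 0.0411, adjusted p = 0.00307). The difference between the transduced lines was -0.06 (adjusted p = 0.425). The pooled call was lost with SKR6LR in the fit (adjusted p = 0.0886). A second RELA probe set differed by 0.22 in SKR6-Vector and 0.42 in SKR6CA and was not called in both. The labels do not say which stretch of p65 the vector encodes, so these probe sets do not check the label of SKR6CA. The pooled difference weights both lines equally and does not depend on which of the 2 is which.

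ERBB2 stood at 13.80, 13.85 and 13.84 in SKR6, at 13.92, 13.93 and 13.92 in SKR6-Vector and at 14.06, 14 and 14.06 in SKR6CA. The pooled difference was 0.15 (SE 0.0332, adjusted p = 0.00547), a 1.11-fold change, and only SKR6CA passed by itself. The pooled call was lost when the 6 arrays were treated as 1 group (adjusted p = 0.0832). EGFR, the ERBB1 receptor that pairs with HER2, moved much further. Its values were 8.50, 8.56 and 8.66 in SKR6, 10.55, 10.64 and 10.72 in SKR6-Vector, and 11.13, 11.08 and 11.09 in SKR6CA, a pooled rise of 2.29 (SE 0.0509, adjusted p = 2.55e-09), or 4.9-fold. Of the 15 measured ERBB receptors and ligands, EGFR rose (6.67%, beside 7.08% of all genes) and 2 fell (13.3%, beside 10.4%). These were LRIG1, a brake on ERBB receptors (-0.68 in SKR6-Vector and -0.74 in SKR6CA), and the ligand EGF (-0.37 and -0.53).

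The 12 largest shared rises were BMP7, GPC6, FN1, CDH5, BASP1, CDKN2B, OLR1, TFPI2, GPRC5A, C3orf70, TCIM and MMP13. They are ranked by the smaller of the 2 line differences, among genes whose 6 transduced arrays lie beyond all 3 SKR6 arrays. BMP7, a ligand of the TGF-beta superfamily, stood at 5.72, 5.24 and 5.26 in SKR6, at 10.62, 10.60 and 10.53 in SKR6-Vector and at 9.67, 9.49 and 9.37 in SKR6CA. Its pooled difference was 4.64 (SE 0.106, adjusted p = 2.55e-09), or 25-fold. FN1, which encodes the matrix protein fibronectin, stood in SKR6 at 9.36, 9.32 and 9.29, and reached 13.43, 13.33 and 13.45 in SKR6-Vector and 12.50, 12.53 and 12.49 in SKR6CA. The pooled rise was 3.63 (SE 0.0397, adjusted p = 4.17e-11), or 12.4-fold. The other 6 FN1 probe sets were called higher in both lines too. GPC6, a heparan sulphate proteoglycan of the cell surface, went from 5.35, 5.54 and 5.31 to 8.97, 9.03 and 9.22 in SKR6-Vector and 8.58, 8.61 and 8.81 in SKR6CA. CDH5, the cadherin of endothelial junctions, went from 5.26, 4.91 and 5.26 to 8.09, 8.06 and 8.17 and to 8.18, 8.20 and 8.29. The difference between the transduced lines for CDH5 was not called (0.12, adjusted p = 0.356), whereas BMP7, FN1 and GPC6 were higher in SKR6-Vector than in SKR6CA (adjusted p at most 0.00523).

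CDKN2B, which encodes the CDK4 and CDK6 inhibitor p15, stood at 5.78, 5.86 and 5.49 in SKR6, at 10.28, 9.99 and 10.27 in SKR6-Vector and at 8.66, 8.57 and 8.46 in SKR6CA. The pooled rise was 3.66 (SE 0.0933, adjusted p = 4.84e-09), or 12.7-fold. The other CDKN2B probe set, at a low mean of 5.65, gave 0.59 in SKR6-Vector and 0.31 in SKR6CA and was not called in both. OLR1, a receptor for oxidised low-density lipoprotein, and MMP13, a collagenase, were higher in SKR6CA than in SKR6-Vector. OLR1 rose from 6.43, 6.63 and 6.52 to 9.33, 9.31 and 9.32 in SKR6-Vector and 11.24, 11.28 and 11.33 in SKR6CA. MMP13 rose from 5.25, 5.15 and 5.24 to 7.45, 7.64 and 7.66, and to 10.64, 10.72 and 10.86. GPRC5A, an orphan receptor induced by retinoic acid, was level between the lines, with rises of 2.67 and 2.66 (adjusted p of the difference 0.906). The remaining 4 of the 12 largest were BASP1 (pooled difference 3.09), TFPI2, a serine protease inhibitor of the matrix (3.20), C3orf70 (2.86) and TCIM (2.90). The other BASP1 probe set, at a low mean of 5.24, gave a pooled difference of 0.14 and was not called. In all 12 the transduced arrays and the SKR6 arrays did not overlap, as the ranking requires.

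The largest shared falls included a transcription factor, secreted proteins of breast epithelium and 2 interferon-stimulated genes. GATA5, a zinc-finger transcription factor, stood at 8.0, 7.81 and 7.97 in SKR6, at 4.90, 4.76 and 4.56 in SKR6-Vector and at 4.83, 4.63 and 4.78 in SKR6CA. Its pooled difference was -3.19 (SE 0.0806, adjusted p = 4.69e-09), or 9.09-fold lower, with no call between the transduced lines (adjusted p = 0.964). CD109, a surface glycoprotein that binds TGF-beta, also fell alike, by 2.71 in SKR6-Vector and 2.74 in SKR6CA. IGFBP2, which binds insulin-like growth factors, went from 9.08, 9.17 and 9.29 to 5.70, 5.70 and 5.96 in SKR6-Vector and 6.51, 6.47 and 6.43 in SKR6CA. MUCL1, a small secreted mucin of breast epithelium, went from 11.90, 11.84 and 11.89 to 9.32, 9.54 and 9.47, and to 8.01, 7.90 and 7.88. The others were SDR16C5 and HSD17B2, dehydrogenases of retinoid and steroid metabolism (pooled differences -2.51 and -1.94), SLC2A10, a glucose transporter (-2.05), AZGP1 (-2.26) and SCGB1D2 (-2.35), secreted by luminal cells, and TMEM200C (-2.07). IFI27 and IFI6 complete the 12.

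**Figure D2:**
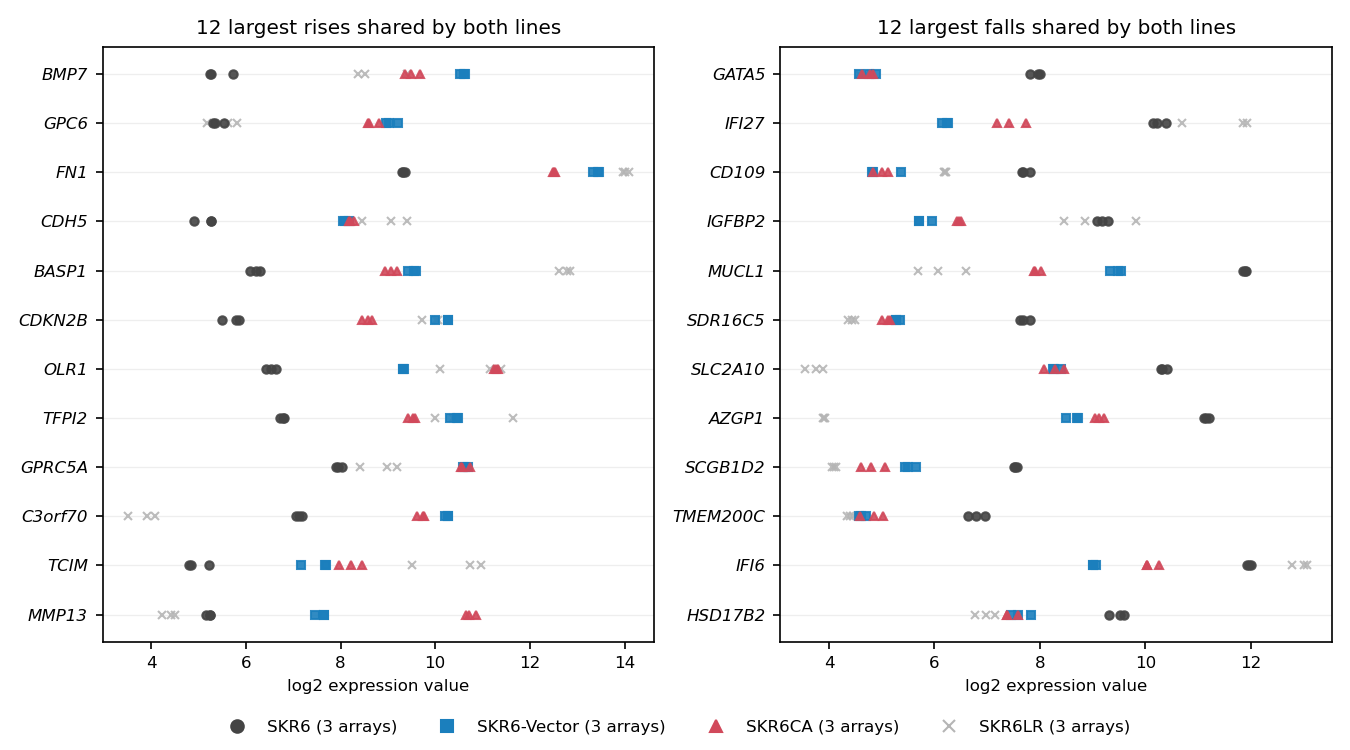
Log2 expression value of the 12 largest shared rises (left) and the 12 largest shared falls (right), 1 symbol an array. In all 24 genes the SKR6-Vector squares and SKR6CA triangles lie on 1 side of the SKR6 circles, for BMP7 at 9.37 to 10.62 against 5.24 to 5.72. Grey crosses are the 3 SKR6LR arrays.

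Of the 39 measured interferon-stimulated genes, 8 fell (20.5%, beside 10.4% of all genes), 5 rose (12.8%, beside 7.08%) and 26 did not pass in both lines in 1 direction. The lines differed here. In SKR6-Vector 6 were higher and 16 lower, beside 16.8% and 18.9% of all genes. In SKR6CA 13 were higher and 9 lower, beside 14.3% and 20.8%. The median differences were -0.16 in SKR6-Vector and 0.14 in SKR6CA, and 3 genes were called in opposite directions. IFI27 stood at 10.15, 10.22 and 10.38 in SKR6, at 6.24, 6.15 and 6.26 in SKR6-Vector and at 7.19, 7.74 and 7.42 in SKR6CA, a pooled difference of -3.42 (SE 0.104, adjusted p = 1.74e-08), or 10.7-fold lower. IFI6, a mitochondrial protein that limits virus replication, went from 11.93, 11.97 and 12 to 9.06, 9.0 and 9.0 in SKR6-Vector and 10.02, 10.26 and 10.03 in SKR6CA. IFI44 went from 7.31, 7.31 and 7.44 to 4.96, 5.37 and 4.75, and to 5.55, 6.04 and 5.77. All 3 were lower in SKR6-Vector than in SKR6CA (adjusted p at most 0.00376). The ubiquitin-like modifier ISG15 fell by 1.11 in SKR6-Vector and 0.64 in SKR6CA, its protease USP18 by 1.12 and 1.08, and its conjugating enzyme UBE2L6 by 0.48 and 0.67. The 2'-5'-oligoadenylate synthetases OAS3 (-1.25 and -0.70) and OAS2 (-0.52 and -0.30) fell too.

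The 5 that rose were GBP2, IRF1, TRIM22, DTX3L and SAMD9. GBP2, a guanylate-binding protein, stood at 7.40, 7.29 and 7.66 in SKR6, at 8.49, 8.50 and 8.61 in SKR6-Vector and at 9.89, 10.22 and 10.19 in SKR6CA. IRF1, a transcription factor of the interferon-gamma and NF-kB responses, went from 7.25, 7.30 and 7.30 to 8.23, 8.19 and 8.11, and to 8.71, 8.77 and 9.13. Both were higher in SKR6CA than in SKR6-Vector. The median pooled difference over the 39 genes was -0.065, beside -0.012 over all genes. None of the 16 measured nucleic-acid sensors and their signalling proteins was called in both lines in 1 direction, and 2 were called in opposite directions.

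Retrovirus restriction factors, which block steps of the retroviral life cycle, fell in 5 of 22 measured cases (22.7%, beside 10.4% of all genes). None rose, and 3 were called in opposite directions. BST2, which tethers budding virions to the cell, went from 9.77, 9.83 and 9.96 in SKR6 to 7.19, 7.30 and 7.53 in SKR6-Vector and 8.30, 8.46 and 8.33 in SKR6CA, a pooled difference of -2.00 (SE 0.0771, adjusted p = 7.55e-08), or 4-fold lower. SLFN11, which inhibits translation of viral proteins, fell by 1.99 in SKR6-Vector and 0.44 in SKR6CA. The pooled call of SLFN11 was lost with the 6 arrays as 1 group (adjusted p = 0.101). SAMHD1, which depletes deoxynucleotides, fell by 0.62 and 0.58, and the deaminase gene APOBEC3B by 0.84 and 0.67 from a low level. APOBEC3B was not called with SKR6LR in the fit (adjusted p = 0.313). The fifth was the histone deacetylase gene HDAC1 (-0.59 and -0.23). Of the 7 measured retrovirus receptors, SLC7A1, a cationic amino acid transporter, rose (0.16 and 0.62) and FLVCR1, a haem exporter, fell (-0.27 and -0.36). Each made up 14.3% of the list, beside 7.08% of all genes that rose and 10.4% that fell.

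Of 20 measured genes for MHC class I, peptide loading and the immunoproteasome, 9 rose (45%, beside 7.08% of all genes), none fell and 11 did not pass, with a median pooled difference of 0.27. PSMB9, a catalytic subunit of the immunoproteasome, stood at 6.57, 6.55 and 6.66 in SKR6, at 7.74, 7.69 and 7.73 in SKR6-Vector and at 8.39, 8.51 and 8.57 in SKR6CA, a pooled rise of 1.51 (SE 0.0469, adjusted p = 1.97e-08), or 2.85-fold. TAP1, which with TAP2 carries peptides into the endoplasmic reticulum, went from 9.30, 9.30 and 9.40 to 9.86, 9.75 and 9.78, and to 10.12, 10.14 and 10.15. TAPBP rose by 0.50 and 0.80, ERAP1, which trims peptides, by 0.48 and 0.80, PSME1 by 0.28 and 0.43, and HLA-E by 0.23 and 0.31. Differences in SKR6-Vector were smaller for TAP2 (0.24 against 1.08), PSMB8 (0.23 against 1.11) and PSMB10 (0.22 against 1.06). With the 6 arrays as 1 group, TAP2 (adjusted p = 0.106) and PSMB8 (adjusted p = 0.116) were not called. With SKR6LR in the fit 5 genes of the list rose, and without probe sets that may cross-hybridise 5 rose and 1 fell. This last setting keeps 17100 genes. A lower count under it, here and below, can also mean that a member was no longer measured.

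**Figure D3:**
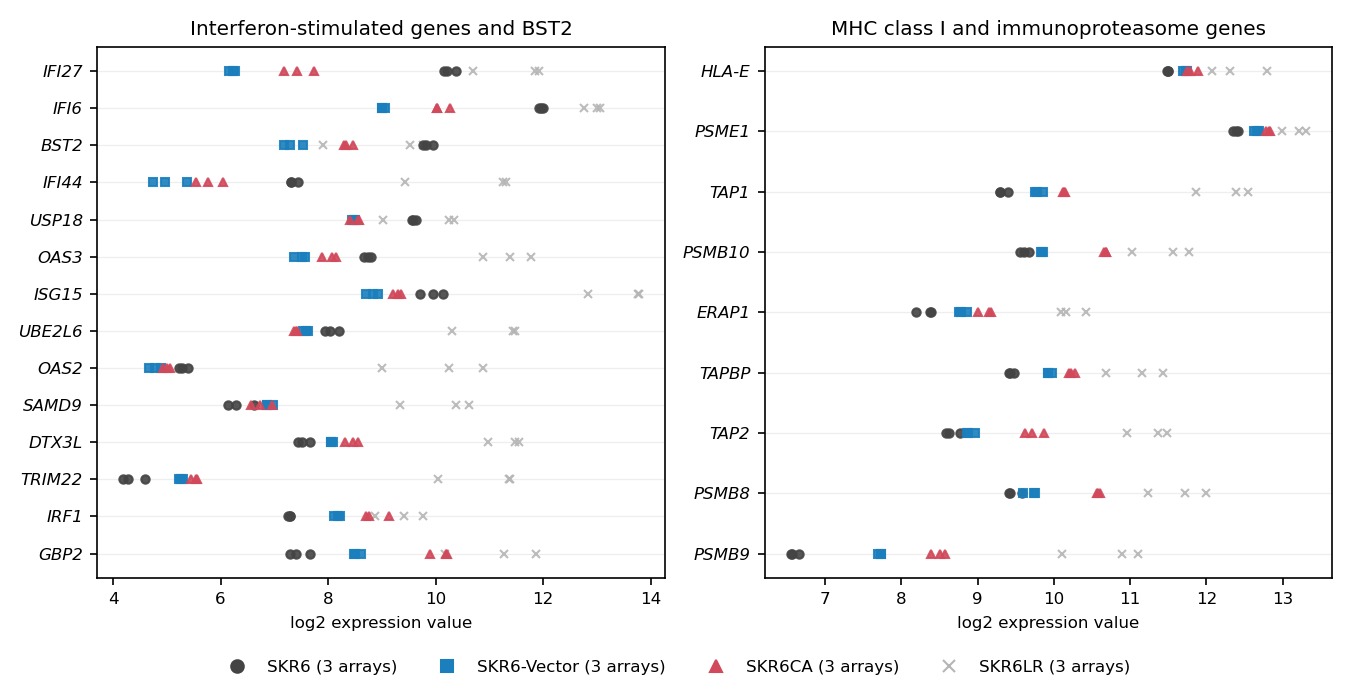
Log2 expression value of 13 interferon-stimulated genes and BST2 (left) and of 9 MHC class I and immunoproteasome genes (right), 1 symbol an array. The 8 interferon-stimulated genes that fell and BST2 lie lower in the transduced lines than in SKR6, as IFI27 at 6.15 to 7.74 against 10.15 to 10.38, and the other 5 and the genes on the right lie higher. Grey crosses are the 3 SKR6LR arrays.

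The promoters of these genes were searched for 1 short element. The interferon-stimulated response element is a short sequence found in the promoters of many interferon-induced genes. Its core was searched on both strands as GAAA, any 2 bases, then GAAA, in RefSeq windows of 250 bases before to 50 after the start site. The core was in 3.65% of all 27305 windows, in 2.94% of the tested genes with a window, in 3.14% of those that rose and in 2.39% of those that fell. It was in 20 of the 33 interferon-stimulated genes with a window. Of these, 5 of the 6 that fell and 2 of the 3 that rose held it. Of the antigen-presentation genes, 8 of 17 with a window held it, among them 6 of the 8 that rose. UBE2L6, IRF1, PSMB8 and PSMB9 had no match in their windows. Windows of 3 genes that fell and 1 that rose are shown, 5' to 3' on the strand of the gene, from RefSeq on GRCh38.p14, with the core in capitals. IFI27 is at chr14:94110486-94110785 on the plus strand, IFI6 at chr1:27672143-27672442 on the minus strand, ISG15 at chr1:1013247-1013546 on the plus strand and TAP1 at chr6:32853655-32853954 on the minus strand.
IFI27: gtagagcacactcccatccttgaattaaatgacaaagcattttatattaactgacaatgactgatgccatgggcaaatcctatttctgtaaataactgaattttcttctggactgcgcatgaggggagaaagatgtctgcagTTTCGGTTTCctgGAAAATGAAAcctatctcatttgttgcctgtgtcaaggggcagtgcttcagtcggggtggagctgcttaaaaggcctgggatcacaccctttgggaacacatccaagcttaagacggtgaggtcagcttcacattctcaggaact
IFI6: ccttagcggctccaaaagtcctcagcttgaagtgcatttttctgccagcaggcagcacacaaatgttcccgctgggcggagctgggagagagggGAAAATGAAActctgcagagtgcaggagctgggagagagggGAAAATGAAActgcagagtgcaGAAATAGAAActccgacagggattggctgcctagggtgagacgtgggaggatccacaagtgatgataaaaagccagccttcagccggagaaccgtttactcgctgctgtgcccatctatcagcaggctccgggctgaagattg
ISG15: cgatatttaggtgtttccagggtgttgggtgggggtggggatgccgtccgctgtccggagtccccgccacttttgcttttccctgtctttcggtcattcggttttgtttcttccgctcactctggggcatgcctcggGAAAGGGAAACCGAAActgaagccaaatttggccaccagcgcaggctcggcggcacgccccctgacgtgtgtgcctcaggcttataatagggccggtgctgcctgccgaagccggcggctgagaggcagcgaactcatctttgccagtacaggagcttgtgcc
TAP1: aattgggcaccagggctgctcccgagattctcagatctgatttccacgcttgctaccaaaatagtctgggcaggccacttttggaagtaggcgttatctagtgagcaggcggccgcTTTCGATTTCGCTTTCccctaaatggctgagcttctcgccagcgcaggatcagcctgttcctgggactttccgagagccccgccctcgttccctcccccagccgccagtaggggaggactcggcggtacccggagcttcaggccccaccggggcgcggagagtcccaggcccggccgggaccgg
IFI27, ISG15 and TAP1 each hold 2 matches and IFI6 holds 3. In ISG15 and TAP1 the 2 matches overlap. The matches describe the sequence only.

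Genes of DNA replication and mitosis fell in most measured cases. Of the 32 measured genes of G1/S and DNA replication, 25 fell and none rose, and of the 34 of G2/M and mitosis, 30 fell and none rose, beside 10.4% of all genes that fell. The median pooled differences were -0.41 and -0.39. These counts were 9 and 16 with SKR6LR in the fit. MCM2, a subunit of the replicative helicase, stood at 10.49, 10.47 and 10.58 in SKR6, at 9.66, 9.75 and 9.68 in SKR6-Vector and at 9.60, 9.59 and 9.44 in SKR6CA, a pooled difference of -0.89 (SE 0.0483, adjusted p = 6.55e-07), or 1.86-fold lower. The E2F family members E2F2 (-0.97 in SKR6-Vector and -0.78 in SKR6CA) and E2F8 (-0.98 and -0.64) fell, though E2F8 was not called with SKR6LR in the fit (adjusted p = 0.149). The loading factors CDT1 (-0.48 and -0.73) and CDC6 (-0.53 and -0.40), the sliding clamp PCNA (-0.36 and -0.41) and thymidylate synthase TYMS (-0.62 and -0.55) fell as well. TK1 did not pass in either direction, with differences of 0.06 and -0.07.

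Among mitotic genes, MKI67, the Ki-67 proliferation antigen, stood at 10.99, 10.91 and 11.05 in SKR6, at 10.31, 10.26 and 10.30 in SKR6-Vector and at 10.56, 10.40 and 10.43 in SKR6CA. Its pooled difference was -0.61 (SE 0.0479, adjusted p = 8.08e-06). KIF2C, a kinesin that removes faulty microtubule attachments, fell by 0.76 and 0.47. CDC20, an activator of the anaphase-promoting complex, went from 11.78, 11.76 and 11.85 to 11.09, 11.19 and 11.08, and to 11.37, 11.25 and 11.21. CCNB1, the cyclin of mitotic entry, fell by 0.54 and 0.51, and FOXM1, a transcription factor of the mitotic programme, by 0.49 and 0.51. The difference between the transduced lines was not called for CCNB1 (adjusted p = 0.596) or FOXM1 (adjusted p = 0.879). PLK1 fell in SKR6-Vector by 0.63 and did not pass in SKR6CA at -0.10. Arrays read total RNA of a culture, so fewer dividing cells and less RNA per cell cannot be told apart.

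**Figure D4:**
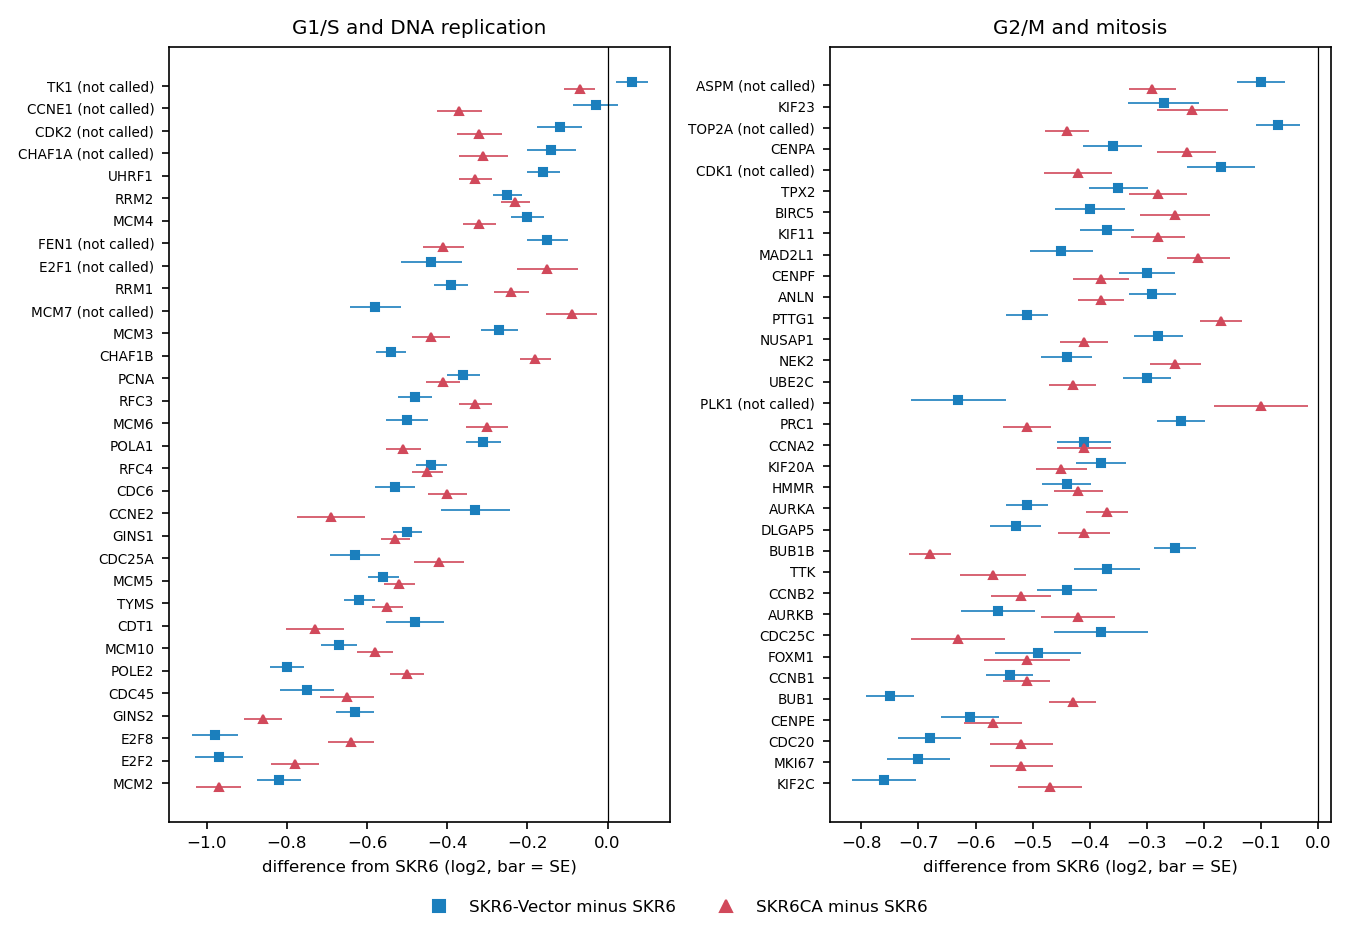
Difference from SKR6 (log2, bar = SE of the limma fit) for each measured gene of G1/S and DNA replication (left) and of G2/M and mitosis (right), with SKR6-Vector as squares and SKR6CA as triangles. Most symbols lie left of 0, from MCM2 at -0.82 and -0.97 to TK1 at 0.06 and -0.07. The 25 and 30 genes called in both lines lie with both symbols left of 0.

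Cell-cycle promoters carry known elements, and these were looked for in the same windows. E2F sites, searched as TTTCCCGC or TTTGGCGC on both strands, were in 2.31% of all windows, in 16 of the 27 G1/S genes with a window and in 14 of the 21 of these that fell. The cell-cycle homology region, bound by the DREAM complex, was searched as TTTGAA and was in 15.4% of all windows, in 18 of the 28 G2/M genes with a window and in 14 of the 24 of these that fell. The CCAAT box, bound by NF-Y, was in 35.7% of all windows, in 23 of those 28 and in 19 of those 24. Windows of GINS2 (chr16:85688905-85689204, minus strand), CDC20 (chr1:43358731-43359030, plus strand) and CCNB2 (chr15:59104896-59105195, plus strand) are shown as examples from RefSeq on GRCh38.p14, 5' to 3'. Capitals mark the E2F site in GINS2 and, in the others, the cell-cycle homology region and CCAAT boxes.
GINS2: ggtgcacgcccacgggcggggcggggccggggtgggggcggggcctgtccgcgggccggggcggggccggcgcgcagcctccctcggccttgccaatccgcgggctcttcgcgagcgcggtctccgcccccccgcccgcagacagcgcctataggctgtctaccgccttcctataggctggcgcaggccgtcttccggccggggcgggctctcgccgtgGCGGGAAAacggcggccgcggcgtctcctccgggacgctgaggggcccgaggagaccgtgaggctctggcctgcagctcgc
CDC20: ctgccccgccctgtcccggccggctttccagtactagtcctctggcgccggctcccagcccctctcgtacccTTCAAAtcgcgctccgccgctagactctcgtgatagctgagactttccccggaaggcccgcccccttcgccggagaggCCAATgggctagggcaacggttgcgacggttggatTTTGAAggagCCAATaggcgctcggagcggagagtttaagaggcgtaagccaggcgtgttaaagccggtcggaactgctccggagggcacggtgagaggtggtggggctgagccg
CCNB2: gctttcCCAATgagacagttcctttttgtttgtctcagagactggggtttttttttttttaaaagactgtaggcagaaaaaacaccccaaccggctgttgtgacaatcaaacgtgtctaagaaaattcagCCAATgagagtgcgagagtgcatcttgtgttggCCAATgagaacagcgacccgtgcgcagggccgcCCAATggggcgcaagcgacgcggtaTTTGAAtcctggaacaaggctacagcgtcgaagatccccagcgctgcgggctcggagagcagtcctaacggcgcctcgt
CDC20 holds 2 matches to the homology region and 2 CCAAT boxes, and CCNB2 holds 1 and 4. GINS2, a subunit of the helicase complex, went from 10.23, 10.24 and 10.27 to 9.62, 9.62 and 9.61, and to 9.45, 9.40 and 9.30. CCNB2, a second B-type cyclin, fell by 0.44 and 0.52.

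Of the 14 measured CDK inhibitors and D cyclins with their partners, 4 rose (28.6%) and 2 fell (14.3%). With probe sets that may cross-hybridise left out 2 rose, but CDKN1A then has no probe set. CDKN1A, which encodes p21, stood at 7.93, 7.83 and 7.99 in SKR6, at 9.22, 9.04 and 9.02 in SKR6-Vector and at 8.97, 8.94 and 8.96 in SKR6CA. The pooled rise was 1.11 (SE 0.0542, adjusted p = 3.33e-07), or 2.16-fold, with no call between the lines (adjusted p = 0.132). CDKN2A, the neighbour of CDKN2B, rose by 1.22 and 0.63, and the kinase gene CDK6 by 1.27 and 0.44. The other CDKN2A probe sets (1.13 and 0.10, and -0.16 and -0.21) were not called in both lines. CDKN2D (p19) fell by 0.64 and 0.53, and the pocket protein gene RBL1 by 0.56 and 0.53. The inhibitor genes CDKN1B (0.07 and 0.24) and CDKN1C (0.03 and -0.08) did not pass in both lines. Of 27 measured p53 targets and DNA damage genes, 3 rose and 3 fell. TP53INP1 rose by 1.96 and 1.08 and ZMAT3 by 1.16 and 0.66, while the checkpoint kinases CHEK1 (-0.47 and -0.61) and CHEK2 (-0.37 and -0.38) and the nuclease gene AEN (-0.48 and -0.33) fell. Counts for p53 targets were thus 11.1% in each direction, near the background of 7.08% and 10.4%.

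Apoptosis genes were called in small numbers. Of the 11 anti-apoptotic genes 18.2% rose and 18.2% fell, and of the 21 pro-apoptotic genes 14.3% rose and 4.76% fell. Over all genes 7.08% rose and 10.4% fell. Of 11 anti-apoptotic genes, MCL1 (0.34 and 0.35) and the small heat shock protein gene HSPB1 (0.59 and 0.55) rose, and BIRC5 (-0.40 and -0.25) and BAG1 (-0.16 and -0.33) fell. BIRC5, which is also in the mitotic list, was not called with SKR6LR in the fit (adjusted p = 0.133). Of 21 pro-apoptotic genes, the BH3-only genes BMF (1.30 and 0.21) and BID (0.30 and 0.19) and BOK, a pore former (0.70 and 0.48), rose. The death receptor gene TNFRSF10A fell by 0.44 in both lines. BMF was not called with the 6 arrays as 1 group (adjusted p = 0.142), nor BOK without probe sets that may cross-hybridise (adjusted p = 0.996). The BOK probe set left then has a low mean of 5.57.

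Ribosome biogenesis and nucleolar genes fell in 10 of 25 measured cases and none rose, with a median pooled difference of -0.20. POLR1A, the largest subunit of RNA polymerase I, stood at 8.72, 8.82 and 8.63 in SKR6, at 8.23, 8.32 and 8.26 in SKR6-Vector and at 8.46, 8.41 and 8.17 in SKR6CA, a pooled difference of -0.42 (SE 0.0688, adjusted p = 0.000985). UTP15 fell by 0.46 and 0.33 and the methyltransferase gene NOP2 by 0.33 and 0.32. Of 23 heat shock and proteasome genes, 10 fell, among them HSPH1 (-0.32 and -0.51), HSPE1 (-0.28 and -0.42), the regulator HSF1 (-0.32 and -0.31) and 5 proteasome subunits, and 2 rose. After cyclic loess 6 genes of the list fell, and 5 without probe sets that may cross-hybridise. Respiratory chain subunits fell in 6 of 26 cases, NDUFS3 by 0.37 and 0.31, and this count was 2 after cyclic loess and 2 with SKR6LR in the fit. Of 25 translation factors 2 fell (8%) and 1 rose (4%), and of 23 cytosolic ribosomal protein genes 3 fell (13%), near the 10.4% and 7.08% of all genes.

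Of 29 AP-1 and EGR immediate-early genes, which growth factor and stress signals switch on quickly, 10 rose (34.5%, beside 7.08% of all genes), 1 fell and 18 did not pass in both lines in 1 direction. FOS stood at 10.18, 9.27 and 9.25 in SKR6, at 11.08, 10.50 and 10.86 in SKR6-Vector and at 11.36, 11.51 and 11.26 in SKR6CA, with 1 SKR6 array well above the other two. FOSB rose by 1.42 in SKR6-Vector and 2.21 in SKR6CA, and JUN by 0.63 and 1.59. ATF3, induced by stress, went from 7.97, 8.05 and 8.16 to 9.54, 9.31 and 9.42, and to 9.88, 10.05 and 9.90, a pooled rise of 1.63 (SE 0.0651, adjusted p = 9.78e-08). SPRY4, a feedback inhibitor of ERK signalling, fell by 0.37 and 0.72.

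In the amino-acid and unfolded-protein stress list 11 of 37 genes rose (29.7%, beside 7.08% of all genes), 3 fell and 23 did not pass. DDIT4, an inhibitor of mTORC1, stood at 11.56, 11.56 and 11.62 in SKR6, at 13.55, 13.51 and 13.55 in SKR6-Vector and at 13.15, 13.13 and 13.14 in SKR6CA, a pooled rise of 1.76 (SE 0.0333, adjusted p = 1.35e-09), or 3.38-fold. VLDLR (0.93 and 1.34), the stress-induced nuclear protein gene NUPR1 (0.89 and 1.13) and the chaperone cofactor gene DNAJB9 (0.74 and 0.85) rose. The asparagine synthetase gene ASNS rose by 0.19 and 0.59, and PHGDH, the first enzyme of serine synthesis, fell by 0.58 and 0.88. The count of rises was 6 with SKR6LR in the fit and 4 without probe sets that may cross-hybridise.

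Of 22 measured TGF-beta and BMP ligands, receptors, SMADs and ID genes, 9 rose (40.9%, beside 7.08% of all genes), BMP7 among them, 2 fell and 11 did not pass. The ligand TGFB2 stood at 6.33, 6.29 and 6.30 in SKR6, at 8.39, 8.24 and 8.37 in SKR6-Vector and at 8.08, 8.08 and 8.04 in SKR6CA, a pooled rise of 1.89 (SE 0.0409, adjusted p = 2.55e-09), or 3.72-fold. BMP2 rose by 0.46 and 0.63. Among receptors, BMPR1B rose by 0.50 and 2.00, and BAMBI, a decoy receptor, by 1.43 and 0.35. SMAD3, which carries the TGF-beta signal to the nucleus, went from 7.73, 7.81 and 7.86 to 9.54, 9.40 and 9.56, and to 8.97, 8.99 and 9.13. The target genes TGFBI (0.42 and 0.85) and ID3 (0.25 and 0.30) and the repressor gene SKIL (1.02 and 0.44) rose. ID2 (-0.38 and -0.66) and the inhibin subunit gene INHBB (-0.91 and -0.50) fell.

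WNT and NOTCH genes rose in 9 of 33 measured cases (27.3%, beside 7.08% of all genes) and fell in 2 (6.06%, beside 10.4%). The ligand WNT4 rose by 0.44 and 2.49, the receptors FZD6 (1.82 and 1.48) and FZD2 (1.10 and 0.49) rose, and the WNT antagonist gene DKK1 rose by 1.43 and 0.36. NOTCH3 (0.75 and 0.21) and its target HES1 (0.24 and 0.47) rose, while the NOTCH targets HEY1 (-0.41 and -0.61) and NRARP (-0.71 and -0.30) fell. With the 6 arrays as 1 group WNT4 (adjusted p = 0.128) and DKK1 (adjusted p = 0.0854) were not called. Without probe sets that may cross-hybridise 5 members rose.

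Of 28 collagens and matrix genes, 7 rose (25%, beside 7.08% of all genes), 1 fell and 20 did not pass in both lines in 1 direction. COL12A1, a fibril-associated collagen, stood at 8.57, 8.50 and 8.33 in SKR6, at 10.39, 10.21 and 10.31 in SKR6-Vector and at 10.19, 10.09 and 10.14 in SKR6CA. FBN1, fibrillin, rose by 2.99 and 0.82, thrombospondin THBS1 by 1.51 and 1.30, and the matricellular genes CCN1 by 1.28 and 1.35 and CCN2 by 1.26 and 2.36. Of 21 matrix proteases and inhibitors 5 rose, including PLAU, the urokinase (0.67 and 1.52), and the inhibitor TIMP2 (1.14 and 0.93), and 2 fell, TIMP1 (-1.26 and -0.48) and MMP9 (-0.25 and -0.48). Only 2 rises were called with SKR6LR in the fit. FBN1 was not called with the 6 arrays as 1 group (adjusted p = 0.0657).

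Of 19 basal and contractile genes, 5 rose and none fell. CAV1, the coat protein of caveolae, stood at 6.5, 6.13 and 6.2 in SKR6, at 11.12, 11.04 and 11.15 in SKR6-Vector and at 7.80, 7.67 and 7.71 in SKR6CA. Its line differences of 4.83 and 1.45 were far apart, and the pooled call was lost with the 6 arrays as 1 group (adjusted p = 0.0528). CAV2 rose by 3.46 and 2.17, the tropomyosins TPM1 by 1.14 and 1.49 and TPM2 by 0.92 and 0.42, and smooth-muscle actin ACTA2 by 2.16 and 0.78. The basal keratin genes KRT5 (0.10 and 0.32) and KRT14 (-0.12 and 0.04) did not pass. In the epithelial-mesenchymal and cadherin list 5 of 23 rose. Beside FN1 these were the tight-junction genes CLDN1 (3.18 and 1.26), CLDN7 (0.23 and 0.38) and TJP1 (0.33 and 0.29), which mark epithelia, and SNAI2 (0.17 and 0.20), a repressor of epithelial genes. The integrins ITGB1 (0.47 and 0.28) and ITGB8 (0.45 and 0.66) rose among 16 measured (12.5%, beside 7.08% of all genes). After cyclic loess or median centring 8 basal and contractile genes rose.

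Luminal genes went both ways. Of 29 measured luminal and steroid-receptor genes, 9 fell (31%, beside 10.4% of all genes) and 5 rose (17.2%, beside 7.08%). SCGB2A2, mammaglobin, stood at 12.53, 12.54 and 12.54 in SKR6, at 10.74, 11.03 and 10.87 in SKR6-Vector and at 9.36, 9.57 and 8.96 in SKR6CA, a pooled difference of -2.45 (SE 0.116, adjusted p = 2.71e-07), or 5.47-fold lower. PIP, prolactin-induced protein, fell by 0.49 and 2.89, and the trefoil factors TFF1 by 1.21 and 0.85 and TFF3 by 1.04 and 0.78. The transcription factors TFAP2B (-1.40 and -1.59), EHF (-0.39 and -0.83) and SPDEF (-0.40 and -0.35) fell. GATA3, a luminal transcription factor, moved the other way, from 10.91, 10.93 and 10.85 to 12.68, 12.68 and 12.66, and to 11.83, 11.73 and 11.80. ELF3 (0.73 and 0.63), MUC1 (0.33 and 2.45), KRT8 (0.29 and 0.42) and KRT18 (0.30 and 0.41) rose. The count of rises was 3 with SKR6LR in the fit and 1 without probe sets that may cross-hybridise.

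Of 22 cholesterol synthesis and SREBP genes, 7 rose (31.8%, beside 7.08% of all genes) and 3 fell (13.6%, beside 10.4%). The other 12 did not pass in both lines in 1 direction, and the median pooled difference was 0.13. INSIG1, which holds SREBP in the endoplasmic reticulum, stood at 7.07, 7.03 and 6.99 in SKR6, at 8.36, 8.10 and 8.14 in SKR6-Vector and at 10.08 in each SKR6CA array, a pooled rise of 2.11 (SE 0.057, adjusted p = 6.8e-09), or 4.32-fold. The cholesterol carrier STARD4 rose by 1.22 and 2.93 and SREBF1, which encodes SREBP1, by 0.43 and 1.23, whereas TM7SF2, a sterol reductase, rose by 1.28 and 0.67. ACAT2 (-0.73 and -0.46), PMVK (-0.51 and -0.69) and EBP (-0.49 and -0.27), also enzymes of the pathway, fell. Of 23 fatty acid genes 14 did not pass and 6 rose (26.1%), among them SCD (0.85 and 1.85), FASN (0.61 and 1.48) and THRSP (0.85 and 1.30), and 3 fell, led by the triglyceride synthase DGAT2 (-0.77 and -1.56). Without probe sets that may cross-hybridise 3 fatty acid genes rose.

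In the insulin-like growth factor and FOXO list 8 of 23 rose (34.8%, beside 7.08% of all genes) and IGFBP2 fell (4.35%, beside 10.4%). FOXO1, a transcription factor that growth signals keep out of the nucleus, went from 7.67, 7.63 and 7.57 to 8.71, 8.64 and 8.69, and to 8.98, 8.80 and 8.91. The docking protein IRS1 rose by 1.03 and 1.09 and PIK3IP1, an inhibitor of PI3-kinase, by 0.97 and 0.63. IGFBP3 (3.86 and 0.23) and IGFBP5 (2.05 and 0.38) rose far more in SKR6-Vector, and neither pooled call held with the 6 arrays as 1 group (adjusted p = 0.233 and 0.125). In the lysosome and autophagy list 8 of 29 members rose (27.6%) and 1 (GLA) fell. A further 5 were called in opposite directions, beside 4.87% of all genes. The lysosome and autophagy genes that rose include CTSS (0.90 and 0.98), TFEB, a regulator of lysosome genes (0.69 and 0.66), and GABARAPL1 (0.92 and 0.49). With SKR6LR in the fit 5 IGF and FOXO genes and 1 lysosome gene rose.

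NRF2 and antioxidant genes fell in 8 of 26 measured cases (30.8%, beside 10.4% of all genes) and rose in 2 (7.69%, beside 7.08%). A further 7 were called in opposite directions, beside 4.87% of all genes. With SKR6LR in the fit 4 fell. The glutathione peroxidase GPX2 went from 10.79, 10.73 and 10.78 to 9.88, 9.92 and 9.88, and to 9.23, 9.18 and 9.14, a pooled difference of -1.22 (SE 0.0359, adjusted p = 1.27e-08). AKR1B10 fell by 1.48 and 0.25 and was not called with the 6 arrays as 1 group (adjusted p = 0.139). AKR1C2 fell by 0.76 and 0.73, and another of its probe sets that may cross-hybridise gave a pooled difference of -0.65. Its 1 probe set not marked as cross-hybridising gave 0.026 (adjusted p = 0.815). That probe set has a mean of 3.79, near the lowest values of the arrays, where a fall would hardly show. This family is made of near-identical copies, so the AKR1C values are uncertain. Of 21 ABC transporters 4 fell (19%) and 2 rose (9.52%). ABCC11 fell by 0.97 and 2.19. Its probe set not marked as cross-hybridising was not called (adjusted p = 0.723), at a low mean of 5.10. ABCC4 rose by 2.28 and 0.33, with no call when the 6 arrays formed 1 group (adjusted p = 0.16).

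One of the lines was transduced with active p65, so NF-kB genes were read line by line. Of 38 measured NF-kB targets, 7 rose (18.4%, beside 7.08% of all genes) and 2 fell (5.26%, beside 10.4%). In SKR6CA 23 were higher and 3 lower, beside 14.3% and 20.8% of all genes. In SKR6-Vector 9 were higher and 6 lower, beside 16.8% and 18.9% of all genes. CCL2, a chemokine, stood at 7.48, 7.39 and 7.25 in SKR6, at 8.27, 8.17 and 8.25 in SKR6-Vector and at 10.30, 10.18 and 10.41 in SKR6CA. GADD45B rose by 0.68 and 1.80 and TNFAIP2 by 0.23 and 1.31. LCN2, lipocalin-2, was highest in SKR6-Vector, with 8.40, 8.40 and 8.43 in SKR6 against 10.55, 10.61 and 10.66, and 9.23, 9.27 and 9.19 in SKR6CA. CCL5 (-0.61 and -0.44) and MMP9 fell. Of 21 NF-kB subunits, inhibitors and kinases, RELA, TAB3 (0.55 and 0.71) and NFKBIZ rose, or 14.3%. NFKBIZ, a nuclear cofactor of NF-kB, went from 7.97, 7.97 and 7.93 to 9.90, 9.85 and 9.95, and to 9.84, 10.16 and 9.94, with no call between the lines (adjusted p = 0.448). CCL2 was not called with the 6 arrays as 1 group (adjusted p = 0.0573), and 2 targets rose with SKR6LR in the fit and 3 without probe sets that may cross-hybridise.

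**Figure D5:**
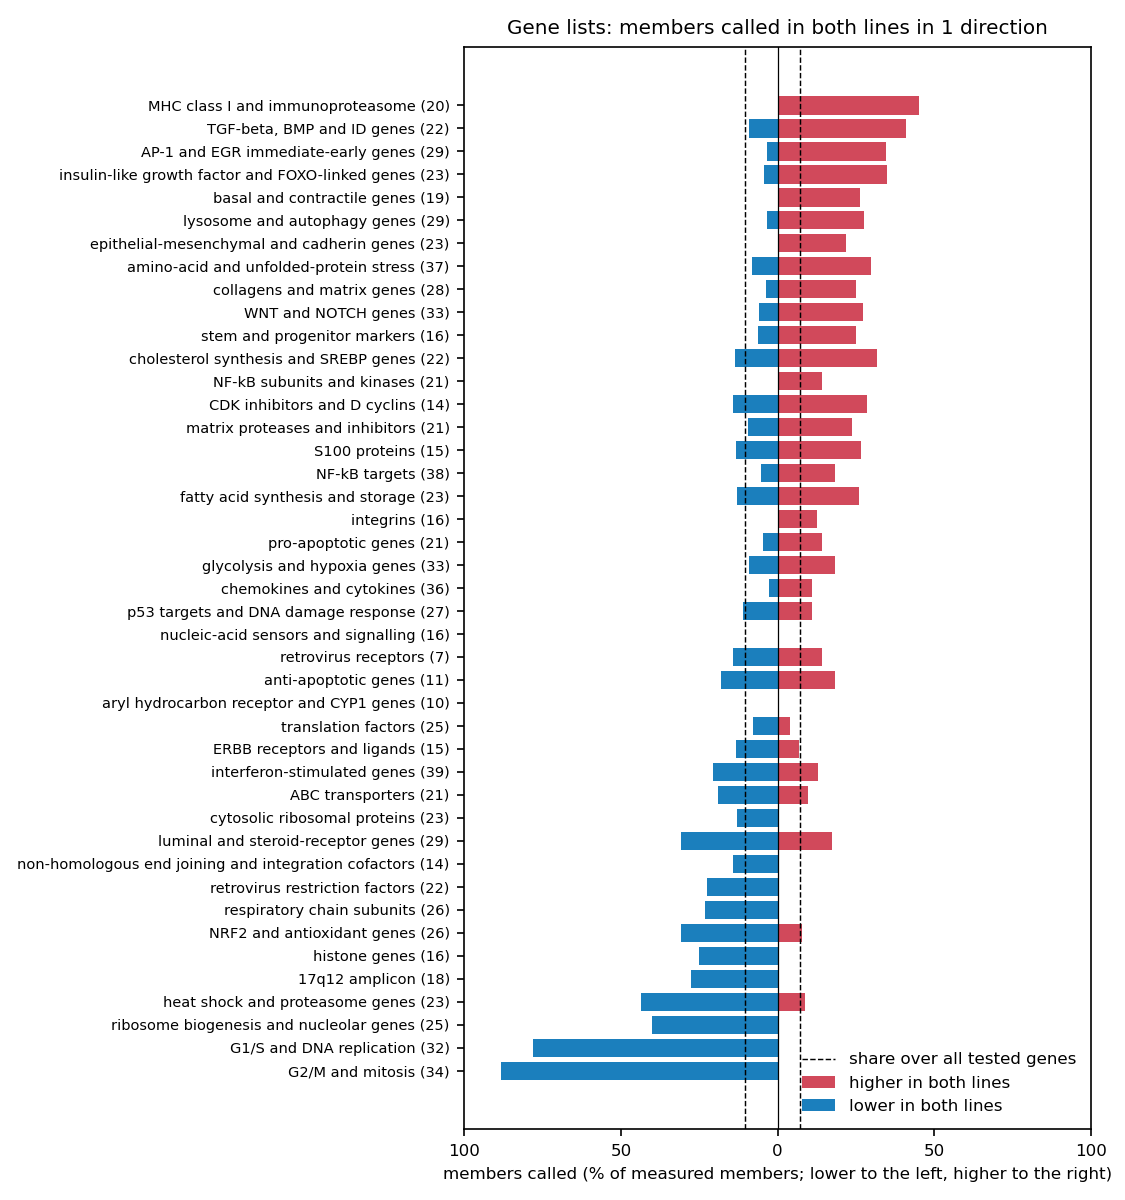
Percentage of measured members called in both lines lower (left) or higher (right) than SKR6 for 43 gene lists, with the number measured in brackets. Dashed lines mark the share over all 19775 genes, 10.4% lower and 7.08% higher. Mitotic genes reach 88.2% lower and MHC class I genes 45% higher.

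The pooled difference can be called where the lines oppose each other. In all, 963 genes (4.87%) were called in both lines in opposite directions, 579 of them higher in SKR6-Vector and lower in SKR6CA (2.93%) and 384 the reverse (1.94%). After median centring the split was 452 and 498. ATP11A, a phospholipid flippase, stood at 7.02, 7.12 and 7.04 in SKR6, at 5.71, 5.76 and 5.66 in SKR6-Vector and at 9.32, 9.63 and 9.47 in SKR6CA. Its pooled difference of 0.53 passed (adjusted p = 0.000126) although the lines went opposite ways, and it was lost with the 6 arrays as 1 group (adjusted p = 0.811). The other ATP11A probe sets, at low means of 4.17 to 5.52, did not repeat the fall in SKR6-Vector. They gave -0.25 to 0.06 there and 0.02 to 1.26 in SKR6CA. BHLHA15 differed by -1.20 and 2.09 and SECTM1 by -1.21 and 1.13. On the other side were PLA2G4A, a phospholipase (1.61 and -1.34), the histone gene H4C8 (1.43 and -1.35) and PCDHB2, a protocadherin (1.41 and -1.22).

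Genes that rose or fell were also read along the chromosomes. Among 19735 genes in RefSeq order, 2 runs of 5 adjacent genes rose and no run of 5 fell. One holds EIF2AK1, USP42, CYTH3, FAM220A and RAC1, with pooled rises from 0.17 to 1.03. CYTH3, an exchange factor for ARF GTPases, accounts for the largest, going from 9.65, 9.63 and 9.64 to 10.67, 10.64 and 10.68, and to 10.64, 10.65 and 10.74. FAM220A in this run was not called with the 6 arrays as 1 group (adjusted p = 0.0566). The second run holds ARPIN, ZNF710, IDH2, SEMA4B and CIB1. Runs of 4 numbered 3 higher and 7 lower. Among them the secretoglobins SCGB2A1, SCGB1D2 and SCGB2A2 fell with ASRGL1, and the metallothioneins MT1F, MT1G, MT1H and MT1X rose. Genes of both families resemble each other, and probe sets may share signal between copies.

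Other probe sets of the same genes mostly pointed the same way. Of the 3453 genes, 2130 had a further single-gene probe set, 4546 in all. In 3251 of these both line differences had the sign of the chosen probe set, 1521 were called the same way in both lines and 14 the opposite way. BMP7 was higher in both lines in all 4 of its probe sets, with pooled differences from 0.45 to 4.64, and EGFR in 5 of 9.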

How the data were processed

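RNA of 12 cultures was measured on single-colour expression arrays of 54675 probe sets. Per the submitters' processing notes the authors used RMA, and the deposited values are log2 intensities, 1 column a sample, with background correction and normalization done before deposit. No tool version was given there. Arrays have no read depth, and their number limits the precision.

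Samples were grouped by title. Of 41097 probe sets with 1 gene symbol in the platform annotation, the one with the highest mean over the 12 arrays stood for each of 19775 genes. The 1801 probe sets with several genes and 11777 with none were left unnamed. limma 3.58.1 in R 4.3.3 fitted 3 group means to 9 arrays, and p-values were adjusted by Benjamini-Hochberg over all genes, with a threshold of 0.05. On simulated data with shifts of 0.5, 1 and 2 the pooled test recovered 88.1%, 100% and 100% of changed genes, and the test in both lines 77.6%, 97% and 100%. Unchanged genes made up 6.8% and 0.543% of the calls. The simulation shifted both lines alike, in 66 or 67 genes of each size, and gave the lines no other difference. In the data 36% of genes differed between the transduced lines, so these rates do not describe the counts above.

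Genes were named by rule: RELA, ERBB2 and EGFR, the 12 largest rises and falls by the smaller line difference among genes called in both lines whose arrays did not overlap, up to 3 members with the largest pooled difference from each list with at least 3 called, 3 of each opposite pattern, and the longest run of neighbours. Members and lists were chosen with earlier results of these data known. Alternatives covered scaling, probe sets, filters, the samples in the fit and leaving out each array.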

Additional observations from a re-analysis of the deposited data

Results flagged for a closer look

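Several shared differences were not equal in the transduced lines, by limma's test of SKR6CA minus SKR6-Vector over all genes. This held for 785 of the genes that rose and 886 of those that fell. Each line is 1 population, so the transgene and the separate history of each line cannot be told apart.

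Among the genes named first, SKR6CA exceeded SKR6-Vector by 0.12 for ERBB2, 0.46 for EGFR, 1.96 for OLR1, 0.71 for TCIM and 3.15 for MMP13. It was lower, with differences of -1.07 for BMP7, -0.40 for GPC6, -0.90 for FN1, -0.46 for BASP1, -1.62 for CDKN2B, -0.92 for TFPI2 and -0.54 for C3orf70. Among the largest falls, the level in SKR6CA was higher by 1.23 for IFI27, 0.68 for IGFBP2, 0.48 for AZGP1 and 1.08 for IFI6. It was lower still, with differences of -1.51 for MUCL1, -0.21 for SDR16C5 and -0.70 for SCGB1D2. Of the genes called in opposite directions, the difference was -2.78 for H4C8, -2.95 for PLA2G4A, -2.64 for PCDHB2, 3.76 for ATP11A, 3.29 for BHLHA15 and 2.34 for SECTM1. Being called on opposite sides of SKR6 nearly brings about a call between the lines. A further 73 of 104 genes chosen by the rule differed between the lines, beside 36% of all genes. The rule mostly picks genes with large differences from SKR6, so this count adds no support.

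Of the 13522 probe sets that name no single gene, controls left out, 298 (2.2%) were higher and 432 (3.19%) lower in both lines. Their p-values were adjusted over all 54675 probe sets. Of the 41097 single-gene probe sets, adjusted among themselves, 2323 were higher and 3180 lower. The shares of the 19775 genes, 7.08% and 10.4%, rest on the highest probe set of each gene and are not directly comparable. Groups of 3 arrays were not tested for outlying samples.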

How the results depend on the processing

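Genes called in both lines in 1 direction numbered 2170 with all 12 arrays in the fit, 163 with a difference of at least 1 in both lines and 5503 over every probe set. Genes called in opposite directions numbered 459 with all 12 arrays and 557 at an adjusted p under 0.01. The pooled count was 3162 with the 6 transduced arrays as 1 group and 11863 over every probe set. Leaving out 1 array at a time gave 5884 to 7063 pooled calls, 5216 to 6127 with both lines on 1 side, 2920 to 3426 in both lines, 720 to 943 opposite, 6180 to 7282 in SKR6-Vector, 6064 to 6759 in SKR6CA and 6343 to 6939 between them. Deviations of same-numbered arrays of different lines correlated at -0.033 to 0.095, and those of differently numbered arrays at -0.117 to 0.092. The labels give only the replicate number, and these values cannot settle whether same-numbered arrays were handled together. With the replicate number as a block the counts were 6675, 5833, 3225, 888, 6794, 6643 and 6915 in that order. Median centring moved the share of opposite genes higher in SKR6-Vector from 60.1% to 47.6% and that of genes higher in SKR6CA than in SKR6-Vector from 45.3% to 57.5%. The pooled difference changed sign for SECTM1 (0.003 after cyclic loess and -0.174 to 0.088 without 1 array), AKR1C2 (0.026 without cross-hybridising probe sets) and H4C8 (-0.043 to 0.099 without 1 array); the causes were not tested. Of 1469 values of named genes under the settings other than leaving out 1 array, 1428 kept direction and side of the threshold. Leaving out 1 array gave 1233 values, of which 1228 did.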

Other observations

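Histone genes opposed each other between the lines. Of 16 measured, 4 fell in both (25%, beside 10.4% of all genes). A further 8 were called higher in SKR6-Vector and lower in SKR6CA, a pattern of 2.93% of all genes. The median difference was 0.22 in SKR6-Vector and -0.9 in SKR6CA. The 4 were H1-3 (-0.32 and -0.42), H1-4 (-0.35 and -0.41), H2AX (-0.31 and -0.35) and H3C2 (-0.51 and -0.84). Histone genes resemble each other, so probe sets may share signal.

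Of 18 measured genes of the 17q12 amplicon, where ERBB2 lies, 5 fell (27.8%, beside 10.4% of all genes) and none rose. PPP1R1B, a phosphatase inhibitor, fell by 1.12 in SKR6-Vector and 0.42 in SKR6CA, TCAP by 0.44 and 0.40 and THRA, a thyroid hormone receptor, by 0.37 and 0.59. MED1 fell by 0.16 and 0.36 and STARD3 by 0.30 and 0.17. After cyclic loess 3 fell and 1 rose. Of 33 glycolysis and hypoxia genes 6 rose (18.2%, beside 7.08% of all genes) and 3 fell (9.09%, beside 10.4%). More of them, 9, were called in opposite directions, beside 4.87% of all genes. In SKR6-Vector 8 were higher and 15 lower, beside 16.8% and 18.9% of all genes. In SKR6CA 15 were higher and 3 lower, beside 14.3% and 20.8%. The shared rises were led by PFKFB3, which makes the activator of phosphofructokinase (2.11 and 0.76). ADM (0.28 and 1.20) was not called when the 6 arrays formed 1 group (adjusted p = 0.0923).

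Of 36 chemokines and cytokines 4 rose (11.1%, beside 7.08% of all genes) and 1 fell (2.78%, beside 10.4%). Those that rose were IL12A (1.55 and 0.99), IL15 (1.11 and 0.67), CXCL16 (0.51 and 1.60) and CCL2. With the 6 arrays as 1 group CXCL16 was not called (adjusted p = 0.0505). Of 15 S100 genes 4 rose (26.7%), S100A9 by 0.63 and 0.97, and 2 fell (13.3%). Of 16 stem and progenitor markers 4 rose (25%) and CD44 fell (6.25%). Those that rose were ALDH1A3 (1.34 and 0.89), SOX4 (1.00 and 0.75), KLF4 (0.75 and 0.42) and CD24 (0.52 and 0.52). CD44, the hyaluronan receptor, stood at 8.15, 8.10 and 8.03 in SKR6, at 7.22, 7.24 and 7.26 in SKR6-Vector and at 4.62, 4.83 and 4.58 in SKR6CA. Its pooled call was lost with the 6 arrays as 1 group (adjusted p = 0.0785). None of the 10 aryl hydrocarbon receptor and CYP1 genes was called in both lines in 1 direction, and 3 were called in opposite directions. Of 14 genes of end joining and integration, XRCC4 (-0.28 and -0.38) and PAXX (-0.50 and -0.25) fell. These are 14.3% of the list, near the 10.4% of all genes.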
